A study of Rattus norvegicus with 17 samples.

Results

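Interleukin 1 beta (Il1b, ENSRNOG00000004649), interleukin 6 (Il6, ENSRNOG00000010278) and cyclooxygenase 2 (Ptgs2, ENSRNOG00000002525) were followed in rat lung as inflammatory mediators whose expression cyclic AMP can alter. They were chosen by gene ID from a list of 4 such mediators, and 3 of the 4 were analysed here, out of 32753 genes in the count table. The fourth was not analysed here, and no filter on low values removed any of the 4. RNA was sequenced from lung parenchyma of Wistar rats (RjHan:WI) in 17 libraries. The compound group held 6 libraries from rats given bleomycin at 1 mg per kg together with BI1015550 at 2.5 mg per kg, and these are called treated. A further 5 libraries came from rats given bleomycin at 1 mg per kg alone, and 6 came from control rats given NaCl. The labels used here give no age, sex, route or time point, and no vehicle for the compound in the other groups. Bleomycin, a drug that breaks DNA, injures the lungs of rodents and leads to fibrosis. The series title calls BI1015550 a PDE4B inhibitor, and PDE4B is an enzyme that degrades cyclic AMP.

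Il1b is made as an inactive precursor, mainly by myeloid cells, and is released after cleavage by an inflammasome. It signals through the IL-1 receptor to NF-kB and induces further mediators, among them Il6 and Ptgs2. Il6 signals through its receptor and gp130 to STAT3. Ptgs2 is the inducible enzyme that turns arachidonic acid into the precursor of prostaglandins, and prostaglandin E2 in turn raises cyclic AMP through some of its receptors. In cultured cells, cyclic AMP is known to act on the promoters of Il6 and Ptgs2 through the transcription factor CREB, and PDE4 inhibitors are known for lowering the output of several cytokines from leukocytes.

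The promoters of the 3 genes are shown so that their motifs can be compared. Each is the RefSeq sequence (build GRCr8) from 250 bases before the annotated start to 50 after it, read 5′ to 3′ on the strand of the gene. Capitals mark matches, on either strand, to the motifs searched. The motifs were the cyclic AMP response element (CRE) TGACGTCA and its core TGACG, AP-1 TGANTCA, NF-kB (GGG, any 2 bases, TTTCC), C/EBP TTGCGCAA and TTNNGNAA, and the TATA box TATAAA. The Il1b promoter lies at chr3:137036532-137036831 on the minus strand, that of Il6 at chr4:5894526-5894825 on the minus strand, and that of Ptgs2 at chr13:64713813-64714112 on the plus strand.
Il1b: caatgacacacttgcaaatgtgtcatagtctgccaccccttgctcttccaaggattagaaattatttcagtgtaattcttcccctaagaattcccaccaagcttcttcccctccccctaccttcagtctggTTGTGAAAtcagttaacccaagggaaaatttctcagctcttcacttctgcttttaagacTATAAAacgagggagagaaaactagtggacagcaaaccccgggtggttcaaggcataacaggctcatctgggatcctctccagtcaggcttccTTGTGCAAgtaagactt
Il6: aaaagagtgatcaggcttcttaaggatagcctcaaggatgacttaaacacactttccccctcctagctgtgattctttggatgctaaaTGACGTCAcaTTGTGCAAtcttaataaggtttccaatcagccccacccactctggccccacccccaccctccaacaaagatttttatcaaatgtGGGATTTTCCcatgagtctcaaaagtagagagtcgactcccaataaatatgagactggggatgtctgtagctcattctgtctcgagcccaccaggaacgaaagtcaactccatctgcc
Ptgs2: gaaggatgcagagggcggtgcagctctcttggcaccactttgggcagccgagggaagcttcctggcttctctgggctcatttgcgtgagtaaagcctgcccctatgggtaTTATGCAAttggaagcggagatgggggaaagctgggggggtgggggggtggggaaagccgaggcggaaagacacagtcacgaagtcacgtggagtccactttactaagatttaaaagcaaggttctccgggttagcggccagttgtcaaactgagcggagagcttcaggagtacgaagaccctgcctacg

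The Il6 promoter held the whole CRE at 162 to 155 bases before the start, a motif present in 1.83% of 33469 promoters of the same length. Its core TGACG, found in 21.2% of promoters, was matched inside that element on both strands and nowhere else in the 3 sequences. The Il6 promoter also held the NF-kB motif, at 68 to 59 bases before the start, which 1.53% of promoters have. The motif TTNNGNAA occurred in all 3 genes and in 41.3% of all promoters. It was matched as TTGTGCAA 152 to 145 bases before the start of Il6, as TTATGCAA 140 to 133 bases before that of Ptgs2, and in Il1b as TTGTGAAA before and TTGTGCAA after the start. The Il1b promoter held TATAAA at 60 to 55 bases before the start, a motif of 14.2% of promoters. AP-1 (7.33% of promoters) and TTGCGCAA (0.17%) were not matched in these windows. These matches describe letters and do not show that a factor binds.

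Libraries held between 14609389 and 18462105 counts. Treated libraries had totals of 14609389 to 15889091, bleomycin libraries 15207791 to 16192209 and control libraries 15919392 to 18462105. Levels are given as CPM, counts per 1000000 counts after scaling by trimmed mean of M values (TMM). All 3 genes were among the 15000 genes that passed the expression filter and were tested. In a bulk tissue, fewer cells of a type and less RNA per cell cannot be told apart, and this holds for every level below. Whether every library had its own animal is not stated in the labels, so the p-values given cover the spread of libraries, which may be technical.

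**Figure D1:**
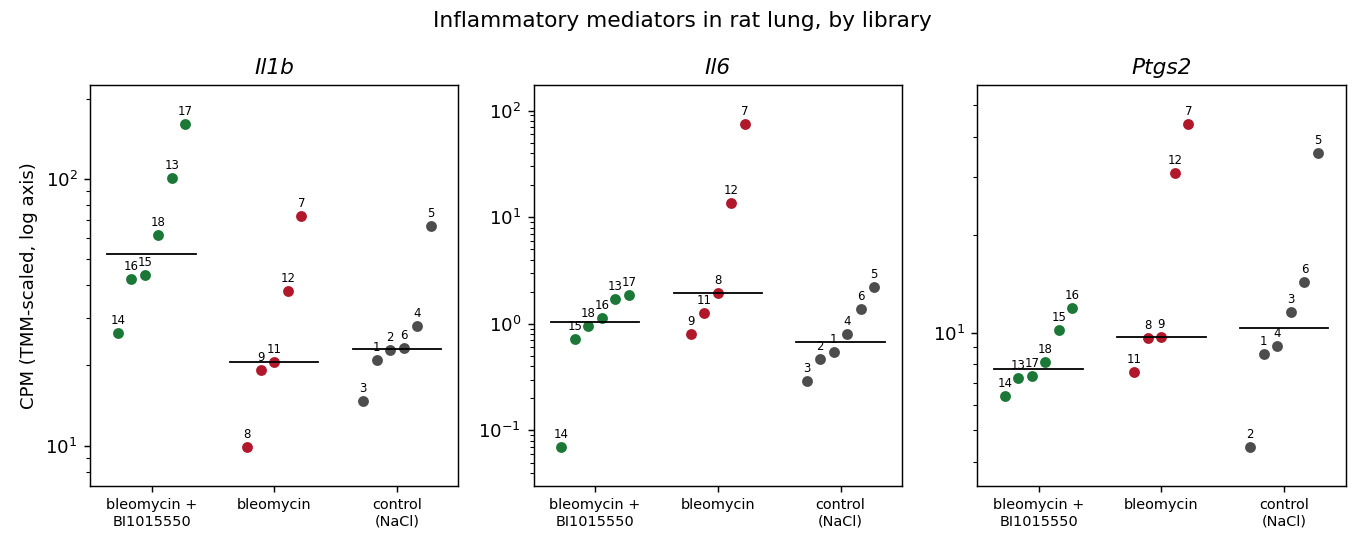
CPM of Il1b, Il6 and Ptgs2 in each library on log axes, with treated, bleomycin and control libraries from left to right; points carry library numbers and bars are group medians. Bleomycin library 7 reached 75.3 CPM of Il6, while treated libraries did not exceed 1.87 CPM.

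Il6 rose with bleomycin and was lower with the compound, and much of its size came from a single library. Il6 had 75.3, 13.5, 1.94, 1.26 and 0.80 CPM in bleomycin libraries 7, 12, 8, 11 and 9, against a range of 0.29 to 2.204 CPM with a median of 0.678 CPM in 6 control libraries. Libraries 7 and 12 lay above every control, and the other three bleomycin libraries lay inside the control range. All 5 bleomycin libraries were above the control median. In counts, bleomycin libraries held 1151, 209, 30, 20 and 12 reads of Il6, against 5 to 37 reads in control libraries. The log2 fold change was 4.29 (SE 0.99, edgeR quasi-likelihood test, adjusted p = 0.00266), or 19.5-fold with a 95% interval of 4.63 to 82.4. Il6 was the 1 gene of the 3 called in this comparison, where 38.3% of all tested genes were called.

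The medians differed less than the fitted means, at 1.94 CPM with bleomycin and 0.678 CPM in controls, a ratio of 2.86. Mean log2 CPM was higher with bleomycin by 2.43 (two-sided exact permutation test, p = 0.0455). Without bleomycin library 7 the log2 fold change was 2.21 (edgeR adjusted p = 0.029), and with limma voom and quality weights it was 1.44 (adjusted p = 0.182). Bleomycin library 7 was the highest of all 17 libraries for 17.9% of tested genes, so it stood apart beyond Il6. The next were bleomycin library 11 with 10.6% and control library 1 with 9.13%. The part of this in the result was not tested.

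In treated lungs Il6 was low in every library. It had a median of 1.04 CPM and a range of 0.0699 to 1.87 CPM in 6 treated libraries, against the 0.80 to 75.3 CPM of the bleomycin libraries. Every treated library lay below the bleomycin median of 1.94 CPM, 2 of 6 lay below the lowest bleomycin library, and the ranges overlapped. Treated library 14 held 1 read of Il6 (exact Poisson 95% interval 0.0253 to 5.57 reads, counting error alone), and the other five held 11 to 28 reads. The log2 fold change against bleomycin was -4.10 (SE 0.98, edgeR adjusted p = 0.00652), a 17.2-fold lower level, in a comparison that called 27.8% of genes. Mean log2 CPM differed by -2.33 (exact permutation test, two-sided, p = 0.0801). Without bleomycin library 7 the log2 fold change was -2.02 (edgeR adjusted p = 0.0555), and with limma voom it was -1.53 (adjusted p = 0.217).

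Treated and control levels of Il6 lay side by side, with means of 1.07 ± 0.658 CPM in treated and 0.948 ± 0.721 CPM in control lungs (SD, n = 6 each). The log2 fold change was 0.19 (SE 1.06, edgeR adjusted p = 0.944). Its 95% interval ran from -2.05 to 2.42, so a difference of several fold in either direction could not be detected in this fit. The fit shares 1 estimate of the spread over the 3 groups, bleomycin libraries included. With only the treated and control groups fitted, the log2 fold change was 0.18 (SE 0.54, edgeR adjusted p = 0.876). The 2 comparisons with bleomycin share the same 5 bleomycin libraries, library 7 among them.

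Il1b passed the test in no comparison, and its medians with bleomycin and in controls were close. Il1b had 72.4, 38.1, 20.6, 19.2 and 9.90 CPM in bleomycin libraries 7, 12, 11, 9 and 8, against 14.7 to 66.6 CPM with a median of 23.1 CPM in controls. The ranges overlapped almost wholly, with 1 bleomycin library above the highest control and 1 below the lowest. The log2 fold change was 0.12 (SE 0.51, edgeR adjusted p = 0.869), with a 95% interval of 0.517-fold to 2.29-fold. It turned to -0.42 without bleomycin library 7 and to 0.54 without control library 5, neither past the threshold (adjusted p = 0.547 and 0.419).

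The highest levels of Il1b were found in treated lungs. Il1b ranged from 26.5 to 161 CPM with a median of 52.5 CPM in treated libraries, against a median of 20.6 CPM in bleomycin libraries and 23.1 CPM in control libraries. Treated libraries 17, 13, 18, 15, 16 and 14 had 161, 101, 61.5, 43.5, 42.1 and 26.5 CPM. All 6 were above the medians of both other groups, and libraries 17 and 13 exceeded every other library. The groups nevertheless overlapped, since bleomycin library 7 and control library 5 were higher than 4 of the treated libraries.

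The excess of Il1b in treated lungs did not pass the test. Against bleomycin the log2 fold change was 1.18 (SE 0.52, edgeR adjusted p = 0.097), or 2.27-fold with a 95% interval of 1.06 to 4.82 before adjustment over genes. Against control it was 1.302 (SE 0.49, edgeR adjusted p = 0.112), or 2.47-fold with an interval of 1.21 to 5.04. The exact permutation test of mean log2 CPM, which is not adjusted, gave p = 0.0758 against bleomycin and p = 0.0346 against control. The difference from bleomycin passed without bleomycin library 7 (log2 fold change 1.72, edgeR adjusted p = 0.0271) and with limma voom (1.45, adjusted p = 0.0388). Treated libraries 13 and 17, left out together because their first principal component scores were closest to control libraries, also had the highest Il1b of all libraries, so the difference had to shrink without them. It was then 0.44 (edgeR adjusted p = 0.572) against bleomycin and 0.56 (adjusted p = 0.582) against control.

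Ptgs2 lay in a narrow range in treated lungs and spread widely in the other two groups. Ptgs2 had 7.24, 6.36, 10.2, 11.9, 7.35 and 8.13 CPM in treated libraries 13 to 18. In bleomycin libraries it had 43.9, 30.9, 9.67, 9.64 and 7.57 CPM, with libraries 7 and 12 far above the other three. Controls ranged from 4.44 to 35.8 CPM with a median of 10.3 CPM, and library 5 stood above the rest. The SD of log2 CPM was 0.33 in treated, 1.14 in bleomycin and 0.98 in control libraries, a difference in spread that was not tested.

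No difference in Ptgs2 passed the test. Against bleomycin, the log2 fold change of treated lungs was -1.25 (SE 0.49, edgeR adjusted p = 0.0656) with a 95% interval of -2.29 to -0.22, and 3 of 6 treated libraries lay below the lowest bleomycin library. The medians were closer, at 7.74 CPM in treated and 9.67 CPM in bleomycin lungs. This difference passed when control library 5 (edgeR adjusted p = 0.0326) or bleomycin library 8, 9 or 11 (0.0431, 0.0496 and 0.0404) was left out. It was -0.76 (adjusted p = 0.252) without bleomycin library 7 and -0.55 (adjusted p = 0.418) with limma voom, and the exact permutation test of mean log2 CPM gave p = 0.0952. Treated lungs differed from controls by -0.71 (SE 0.47, edgeR adjusted p = 0.411), and bleomycin from controls by 0.55 (SE 0.48, edgeR adjusted p = 0.393). Without bleomycin library 7 the last value was 0.05, and without control library 5 it was 1.09 (adjusted p = 0.0608).

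**Figure D2:**
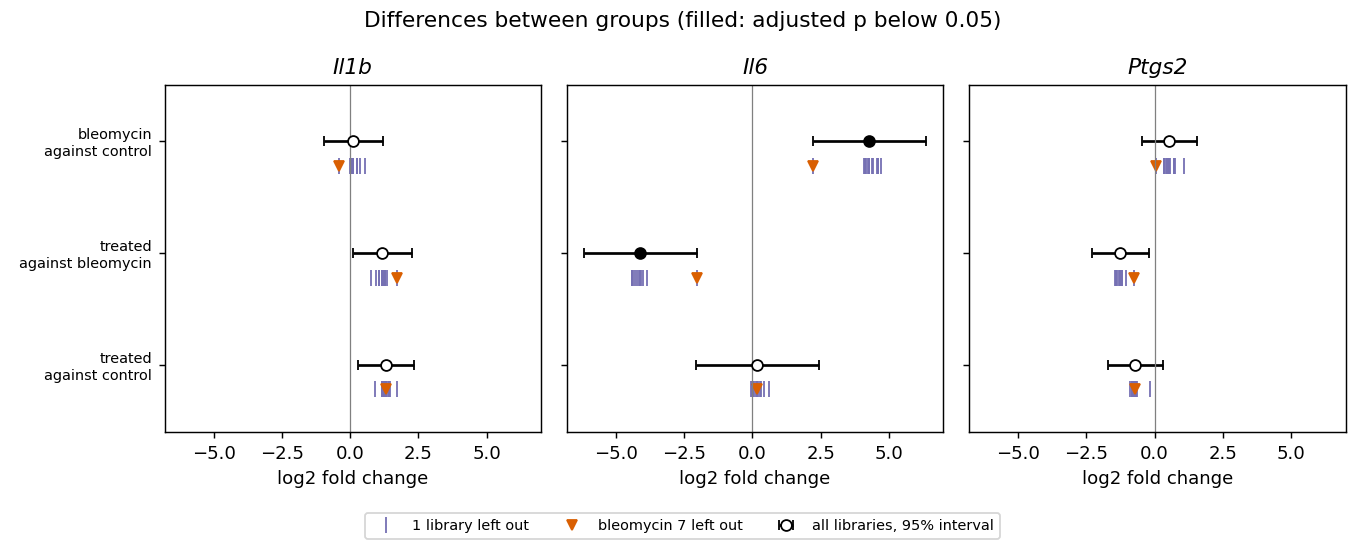
Log2 fold changes of the 3 genes in the 3 comparisons, with 95% intervals (filled where the adjusted p was below 0.05), the values with each library left out as ticks and those without bleomycin library 7 as triangles. Leaving out that library moved Il6 to 2.21 against control and to -2.02 for treated against bleomycin.

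Set against all genes, the 3 mediators had a median log2 fold change of -1.25 for treated against bleomycin, where all tested genes had -0.0032, and of 0.55 for bleomycin against control, where all had -0.0072. For treated against control the medians were 0.19 and 0.0041. With 3 genes each median is the value of 1 of them, here of Ptgs2 in the first 2 comparisons and of Il6 in the third, and the genes did not share a direction: for treated against bleomycin Il1b stood at 1.18, beside -4.10 for Il6. For treated against control, edgeR, DESeq2 and limma voom each called 0 of the 3 genes. Il1b alone had an unadjusted edgeR p below 0.05. Of all tested genes 8.39% were called there and 22.6% had an unadjusted p below 0.05. For treated against bleomycin all 3 had an unadjusted p below 0.05, as did 40.6% of all genes. For bleomycin against control 1 of 3 did, Il6, and 47.2% of all genes. With 3 genes, these counts show nothing particular to the mediators.

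All 3 genes varied more between libraries of the same group than most genes did. The SD of log2 CPM within groups was 1.69 for Il6, 0.92 for Il1b and 0.87 for Ptgs2, against a median of 0.24 over tested genes. Il6 exceeded 99.8% of tested genes in this spread, Il1b 98.2% and Ptgs2 97.8%. In mean CPM, Il6 exceeded only 24.8% of tested genes, Ptgs2 38.35% and Il1b 66.4%. The spread was not compared with that of genes of like level. For Il6 the spread was largest in the bleomycin group, where its SD was 2.66, against 1.22 in treated and 0.92 in control libraries.

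The spread was shared in part. In the bleomycin group, library 7 was the highest and library 12 the second highest for all 3 genes. In the control group, library 5 was the highest for all 3, with 66.6 CPM of Il1b, 2.204 CPM of Il6 and 35.8 CPM of Ptgs2. Treated library 14 was the lowest of its group for all 3, and treated library 17 was the highest for Il1b and Il6. Il1b and Ptgs2 ran opposite ways in treated libraries 13, 15, 16 and 17, and only slightly so in treated library 18 (0.024 and -0.035). Libraries 17 and 13 lay 1.41 and 0.74 above the group mean of log2 CPM for Il1b and at -0.18 and -0.20 from it for Ptgs2, while libraries 15 and 16 lay at -0.47 and -0.52 for Il1b and 0.29 and 0.51 above it for Ptgs2. After removal of group means, log2 CPM over 17 libraries correlated between Il1b and Il6 with Pearson's r of 0.814 and Spearman's rho of 0.816. For Il6 and Ptgs2, r was 0.765 and rho 0.782, and for Il1b and Ptgs2, r was 0.578 and rho 0.431. Without the 2 libraries farthest from the median of the first gene, r was 0.757, 0.677 and 0.559 for the same pairs, and without bleomycin library 7 alone it was 0.767, 0.687 and 0.466. These correlations are descriptions, since the values share libraries and their scaling.

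**Figure D3:**
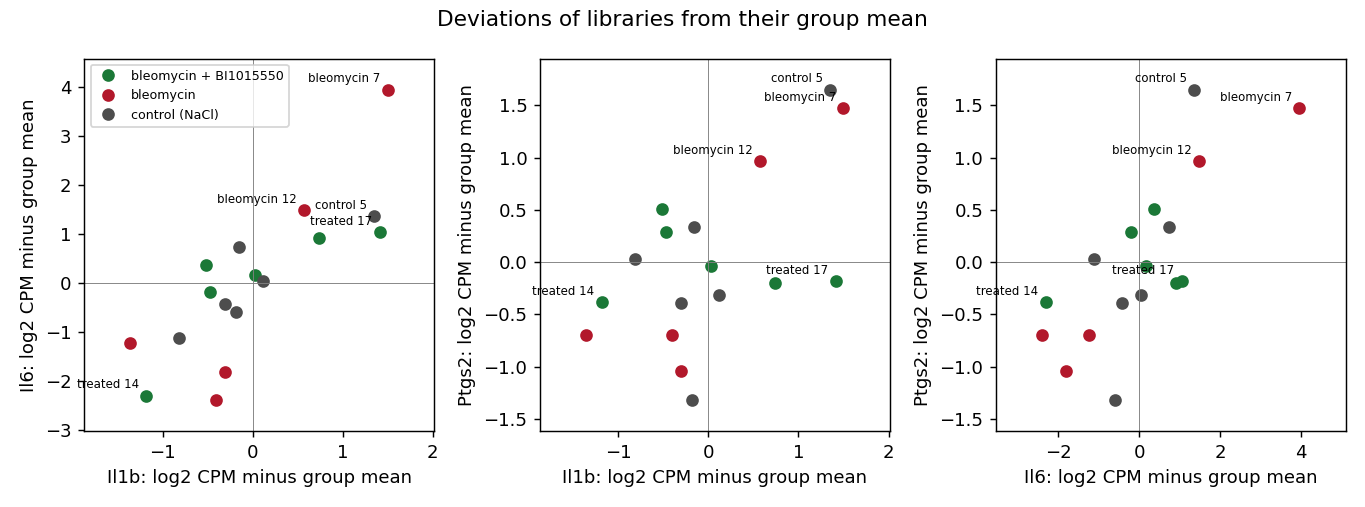
Deviation of each library from its group mean in log2 CPM for the 3 pairs of genes, coloured by group. Bleomycin libraries 7 and 12 and control library 5 lie in the upper right of every panel, and treated library 14 in the lower left.

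Beside this variation, the level of Il1b relative to Il6 and to Ptgs2 within a library differed between treated and bleomycin libraries. The ratio of 2 read counts in a library needs no scaling between libraries, and these ratios were examined after the levels had been seen, so they are described without a test. Il1b reads per Il6 read were 37.3 to 379 with a median of 62.5 in treated libraries, and 0.962, 2.82, 5.10, 16.4 and 24.0 in bleomycin libraries 7, 12, 8, 11 and 9. Every treated library was above every bleomycin library, and the bleomycin ratio nearest to them came from library 9, not from library 7. Controls, at 17.04 to 50.6 with a median of 36.7, overlapped both groups. The highest ratio, 379 in treated library 14, rests on 1 read of Il6 (exact 95% interval 67.6 to 15009), and the lowest treated ratio of 37.3 had an interval of 23.4 to 63.4, against 13.5 to 47.0 for the highest bleomycin ratio.

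Il1b reads per Ptgs2 read separated the same groups. They were 3.54 to 21.9 with a median of 5.92 in treated libraries and 1.65, 1.03, 1.99, 2.73 and 1.23 in bleomycin libraries 7, 8, 9, 11 and 12. Controls ranged from 1.27 to 5.14 with a median of 2.16, so 1 control, library 2, reached into the treated range. Of the log2 ratios of Il1b to each of 14999 other tested genes, 1.93% did not overlap between treated and bleomycin libraries, and the ratios to Il6 and to Ptgs2 were among them. The same share was 1.87% for ratios of Il6 and 4.75% for ratios of Ptgs2. The ratio of Il6 to Ptgs2 overlapped, at 0.011 to 0.255 in treated, 0.0828 to 1.71 in bleomycin and 0.0251 to 0.106 in control libraries.

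**Figure D4:**
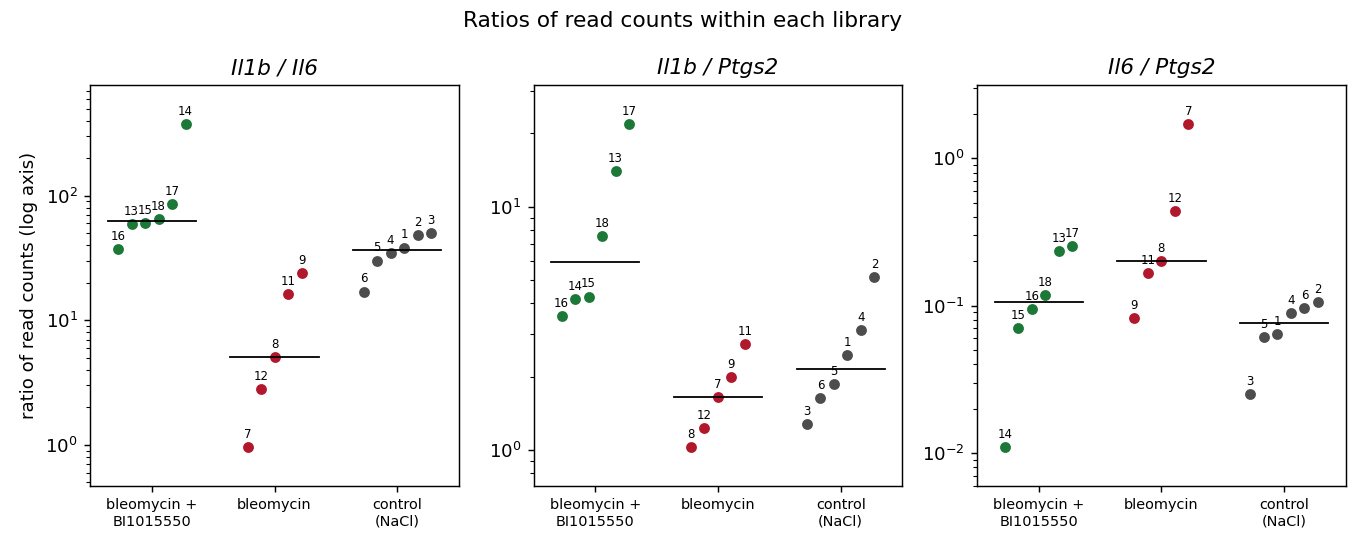
Ratios of read counts between pairs of the 3 genes in each library on log axes, for treated, bleomycin and control libraries from left to right, with library numbers and group medians. Treated libraries had 37.3 to 379 Il1b reads per Il6 read and bleomycin libraries 0.962 to 24.0.

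The gene whose deviations from group means were most like those of a mediator was ENSRNOG00000012965, with r = 0.953 to Il1b over 17 libraries among 14110 genes of at least 1 CPM. It had 31.9 ± 11.01 CPM in treated (SD, n = 6), 21.2 ± 8.13 CPM in bleomycin (SD, n = 5) and 25.2 ± 5.43 CPM in control lungs (SD, n = 6), and passed the test in no comparison (edgeR adjusted p = 0.0813 for treated against bleomycin, 0.446 for bleomycin and 0.417 for treated against control). Its unadjusted direction between treated and bleomycin lungs was that of Il1b, with a log2 fold change of 0.59 (SE 0.24). The gene second most like Il1b (r = 0.92), outside the naming rule and added after its values were seen, was higher in treated than in bleomycin (1.66, SE 0.45, edgeR adjusted p = 0.0122) and in control libraries (2.10, SE 0.43, edgeR adjusted p = 0.00572). The second named gene was ENSRNOG00000001414, with r = 0.935 to Ptgs2. It had 84.3 ± 22.6 CPM in treated, 351 ± 305 CPM in bleomycin and 121 ± 135 CPM in control lungs, and bleomycin library 7 reached 854 CPM. Treated lungs had less of it than bleomycin lungs (edgeR adjusted p = 0.0194 for a log2 fold change of -2.06, SE 0.61). It differed from control by 1.54 with bleomycin (SE 0.60, edgeR adjusted p = 0.0514). The gene second most like Ptgs2, also outside the naming rule, had r = 0.927, above the 0.92 of the gene added for Il1b. That gene passed the test in no comparison. Its edgeR adjusted p was 0.122 for treated against bleomycin, 0.828 for bleomycin against control and 0.284 for treated against control.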

How the data were processed

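The authors deposited 1 table of raw read counts per Ensembl rat gene, with 1 column per library, and each column name matched 1 label. RSEM 1.3.0, featureCounts 1.5.1, the aligner STAR 2.5.2b and the build Rnor_6.0 are named, among others, per the submitters' processing notes. The sources used here do not give the tool behind the counts, the annotation release or the strand setting, so reads of overlapping or antisense genes may be included. The table holds IDs without gene names. The 3 names come from the list that chose the genes, other genes have no name here, and the planned lists of pathway genes and cell type markers, the check of lung markers included, were not run.

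Genes passing filterByExpr (15000 of 23083 with a count) were fitted with edgeR 4.0.16 in R 4.3.3, with TMM scaling and a quasi-likelihood model of the 3 groups over all 17 libraries. P-values were adjusted by Benjamini-Hochberg over all tested genes, with a threshold of 0.05. The SE was the log2 fold change over the square root of F. Log2 CPM used a prior count of 2. The test was run on simulated data with known changes. DESeq2 1.42.0, limma 3.58.1 voom, other scalings and filters, and leaving out libraries were alternatives. Libraries of a group differed beyond counting noise in all 40 pairs (mean chi-square per gene 11.6 to 88.3). The genes named are the mediators and the 2 IDs most like any of them. The members and lists were chosen with earlier results of these data known. Library numbers run on from control to treated, so an effect of that order and the groups cannot be told apart. Promoters are from RefSeq (GRCr8), found for all 3 genes, and that build is not the one named for the counts.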

Additional observations from a re-analysis of the deposited data

Results flagged for a closer look

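Among 9 groups of library values (3 genes in 3 groups), 3 held a library whose gap to its nearest neighbour, as a share of the range, was above Dixon's limit. Chance gives about 1 in 20 for normally distributed values, and these CPM values are skewed. Il6 reached 75.3 CPM in bleomycin library 7, where the next library had 13.5 CPM (gap 0.829 of the range, limit 0.71). Il1b reached 66.6 CPM in control library 5, where the next had 28.2 CPM (gap 0.74, limit 0.625). Ptgs2 reached 35.8 CPM in the same control library, where the next had 14.3 CPM (gap 0.685, limit 0.625). Bleomycin library 7 was the highest of the 5 bleomycin libraries for 29.3% of tested genes. Control library 5 was the highest of the 6 controls for 18.4%, and control library 1 for 28.9%.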

How the results depend on the processing

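No paired analysis was possible because library numbers run from 1 to 18 and none occurs in more than 1 group. The numbers of the bleomycin libraries skip from 9 to 11, and the labels give no reason. Of 27 alternatives for each difference, Il6 kept its call in 26 for bleomycin against control and in 25 for treated against bleomycin. It lost the call with limma voom (1.44 and -1.53) and, for the second, without bleomycin library 7. With limma voom, Il1b (bleomycin against control) turned to -0.28, Il6 (treated against control) to -0.094, and Il1b (treated against bleomycin, 1.45) passed the threshold. Without treated libraries 13 and 17, Il6 (treated against control) turned to -0.37. With only the 2 groups compared, Ptgs2 (treated against bleomycin, -1.25) passed. The cause was not tested.

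With 1 library left out, bleomycin against control ranged from -0.42 to 0.54 for Il1b (-0.016 without control library 3), 2.21 to 4.73 for Il6 and 0.053 to 1.09 for Ptgs2. Treated against bleomycin ranged from 0.78 to 1.72, from -4.41 to -2.02 and from -1.46 to -0.76. Treated against control ranged from 0.90 to 1.72 (1.72 without control library 5, adjusted p = 0.0382), from -0.041 to 0.63 (-0.041 without treated library 17 and -0.0017 without control library 3) and from -0.89 to -0.17. Genes called ranged from 4894 to 6359, 3126 to 4611 and 794 to 1573 in the 3 comparisons. The 4163 genes called for treated against bleomycin became 1929 without treated libraries 13 and 17, and the 1259 for treated against control became 2546 with limma voom. With no composition scaling, 55.7% of calls for treated against bleomycin were higher, against 43.5% with TMM. Counts of 1 to 37 Il6 reads outside bleomycin libraries limit its precision, and so does the spread shared over the 3 groups. For treated against control, the SE of Il6 was 1.06 in the main fit. It was 0.73 without bleomycin library 7 and 0.54 with only the 2 groups compared.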
